A study of Mus musculus with 15 samples.

Results

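The 29 genes described here make, take up, export and sense cholesterol in the liver, and they were chosen by gene symbol from the 18131 genes of a mouse liver RNA-seq count table. Of these, 19 encode enzymes of cholesterol and isoprenoid synthesis, 4 encode parts of the sterol sensor, and 6 act in sterol transport, esterification and receptor turnover. The liver makes cholesterol from acetyl-CoA through mevalonate and squalene. When sterols are scarce, SCAP carries the transcription factor SREBP2 out of the endoplasmic reticulum, and SREBP2 then switches on most of the synthesis genes. When sterols are plentiful, the INSIG proteins hold SCAP back, and oxysterol-activated LXR receptors raise the genes for export.

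All libraries came from livers of C57BL/6 mice, labelled male and 6 months of age, whose feeding began at 6 weeks of age. The high salt diet (HSD) held 8% NaCl and the normal salt diet (NSD) 0.4%, and the labels give both 4 months and 8 weeks for its duration. The 4 main groups had 3 libraries each, wild type (WT) on normal salt, WT on high salt, labelled Sirt3-/- (KO) on normal salt and labelled KO on high salt. An additional WT set had 2 high salt libraries and 1 normal salt library. Sirt3 encodes a mitochondrial deacetylase, and the sources used here do not give the knockout allele. Nothing in the labels says that libraries of a group came from separate animals, so the p-values below refer to differences between these libraries, whose spread may be technical.

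Sirt3 transcript was present in every library labelled KO. It stood at 64.8, 43.4 and 43.8 CPM (counts scaled to library size after TMM normalization) in KO NSD 1, 2 and 3 and at 62.6, 68.8 and 56.7 CPM in KO HSD 1, 2 and 3. The WT NSD libraries had 49.8, 52.8 and 53.2 CPM and the WT HSD libraries 83.9, 65.7 and 65.8 CPM, so the groups overlapped. Gene-level counts cannot show an allele that loses only some exons, and every direction between genotypes below rests on the labels alone.

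Total expected counts ranged from 15726897 to 19539406 per library, with 12237 to 13036 genes at 10 counts or more. The summed level of 8 hepatocyte markers lay between 97200 and 152800 CPM in all libraries. KO NSD 1 and KO NSD 3 had Y-linked sums of 2.585 and 1.81 CPM against 63.95 to 109 CPM elsewhere, although all mice were labelled male. The KO NSD libraries also had Kupffer cell and macrophage marker sums of 1057, 334.4 and 728.8 CPM, against 189.7 to 255.3 CPM in WT NSD. KO HSD 2 (525 CPM), WT HSD 1 (415.4 CPM) and the normal salt library of the additional WT set (428.9 CPM) lay above KO NSD 2. Neutrophil marker sums were 240.7, 86.5 and 133.7 CPM in KO NSD against 11.79 to 25.3 CPM in WT NSD. Results of the 29 members that use KO NSD are therefore also given without libraries 1 and 3. This leaves 1 library in that group, assumed to vary like the others. In bulk liver, fewer cells of a type and less RNA per cell cannot be told apart.

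Promoter letters are shown for Hmgcs1, Idi1, Msmo1 and Abcg8, and for Ebp, an enzyme that did not follow Hmgcs1 across the libraries. These genes were chosen after the values were seen, and other members with a window are not shown. RefSeq windows of 300 bases on GRCm38.p6, from 250 bases before a transcription start to 50 after it, were found for 24 of the 29 genes, in 31 windows. The following stretches end at or before the start and read 5′ to 3′ on the gene's strand. Capitals mark CCAAT or its reverse complement ATTGG, the box bound by the factor NF-Y, and in Hmgcs1 also the sterol element TCACNCCAC.
Hmgcs1: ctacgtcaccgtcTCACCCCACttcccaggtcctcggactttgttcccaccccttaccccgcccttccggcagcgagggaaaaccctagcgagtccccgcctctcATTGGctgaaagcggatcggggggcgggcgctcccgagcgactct
Idi1: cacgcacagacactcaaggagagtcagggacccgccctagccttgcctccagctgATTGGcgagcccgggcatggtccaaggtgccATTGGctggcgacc
Msmo1: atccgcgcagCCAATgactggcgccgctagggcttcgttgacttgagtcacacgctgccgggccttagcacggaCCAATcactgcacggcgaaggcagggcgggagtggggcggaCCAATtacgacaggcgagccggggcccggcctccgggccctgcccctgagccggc
Ebp: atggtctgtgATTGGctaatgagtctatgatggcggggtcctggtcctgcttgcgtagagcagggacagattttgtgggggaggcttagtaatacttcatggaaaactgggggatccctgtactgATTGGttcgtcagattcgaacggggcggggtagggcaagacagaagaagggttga
Abcg8: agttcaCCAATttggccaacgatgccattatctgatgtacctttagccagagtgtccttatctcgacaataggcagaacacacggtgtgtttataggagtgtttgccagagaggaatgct

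These stretches lie at chr13:119690201-119690350 (Hmgcs1, plus strand), chr13:8885506-8885605 (Idi1, plus strand), chr8:64733579-64733748 (Msmo1, minus strand), chrX:8193513-8193692 (Ebp, minus strand) and chr17:84683001-84683120 (Abcg8, plus strand). On either strand, CCAAT occurred in 21 of the 24 members with a window and in 15 of the 16 synthesis enzymes with one, against 42.9% of the 10294 tested genes that had a window. The only CCAAT counted for Abcg5 was the same site as the one capitalized for Abcg8. It lies at the transcription start of Abcg5, since the windows of these genes overlap. The GC box GGGCGG occurred in 20 of the 24, against 65.7% of tested genes. TCACNCCAC was found only in the Hmgcs1 window (1.46% of tested genes), and the looser TCACNCNAC, which contains every TCACNCCAC match, in Hmgcs1 and Nsdhl (3.32%). The palindrome TCACGTGA and the LXR-type direct repeat were in no member's window. A match is a string of letters and was not tested for binding.

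Per length, Fdps was the most abundant of the 29 transcripts, with a median over 15 libraries of 272.31 FPKM (fragments scaled by transcript length and library size, the authors' values). Sc5d followed at 206.54 FPKM, Insig1 at 145.12, Ebp at 135.77 and Msmo1 at 118.77, while Ggps1 at 2.09 FPKM and Mylip at 1.92 FPKM were the least abundant. The ranges of neighbours in this order overlapped widely, since Fdps alone ran from 76.93 to 404.38 FPKM. Fdps makes farnesyl diphosphate, the branch point between sterols and isoprenoids, and Ggps1 extends it to geranylgeranyl diphosphate for protein prenylation.

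**Figure D1:**
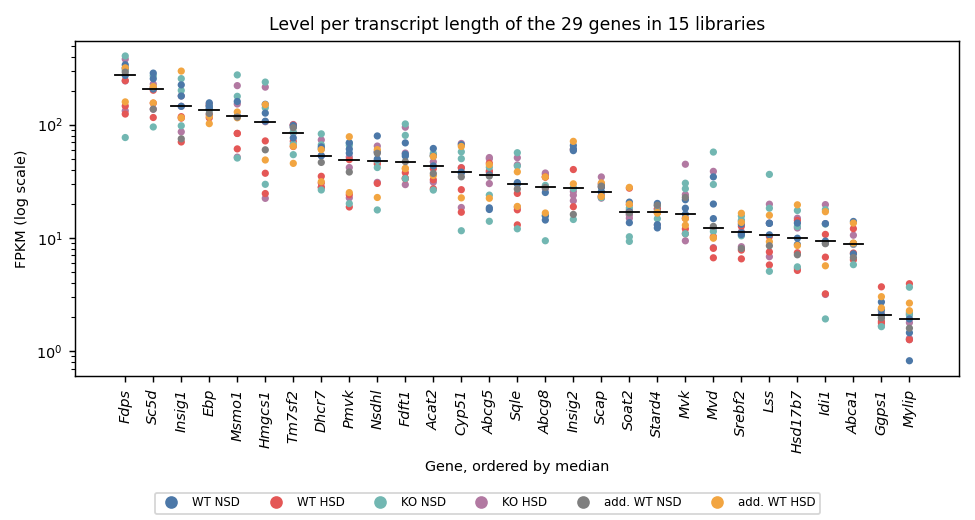
Level of each of the 29 genes per length, as the authors' FPKM on a log axis, with 1 point per library. Fdps, Sc5d and Insig1 lie highest and Ggps1 and Mylip lowest, and most synthesis enzymes spread widely between libraries.

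The synthesis enzymes were among the more variable genes from library to library. The median standard deviation of log2 CPM over the 15 libraries was 0.693 for the 19 enzymes and 0.309 for all genes tested. The ratio of the highest to the lowest library was 11.6 for Idi1, the isopentenyl diphosphate isomerase, 10.9 for Hmgcs1 and 8.57 for Mvd. By the standard deviation of log2 CPM, Hmgcs1 (1.13) stood above Idi1 and Mvd (both 1.00). The same ratio was 1.81 for Ggps1, 2.04 for Ebp and 1.79 for the sensor partner Scap.

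Many of the extremes came from 1 group. KO NSD 1 was the lowest of the 15 libraries for 12 of the 19 enzymes, and KO NSD 2 was the highest for 11 of the 19. The shares of all genes with these extremes were not computed, so they are not shown to be particular to the enzymes. As a median over the enzymes, KO NSD 1 lay 0.975 below the 15-library mean on the log2 scale and KO NSD 2 lay 0.919 above it. KO HSD was also divided, over a smaller range, at 0.271, -0.675 and 0.822 in libraries 1, 2 and 3. WT NSD was closer together, at 0.296 to 0.441, as was WT HSD, at -0.517 to -0.307.

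**Figure D2:**
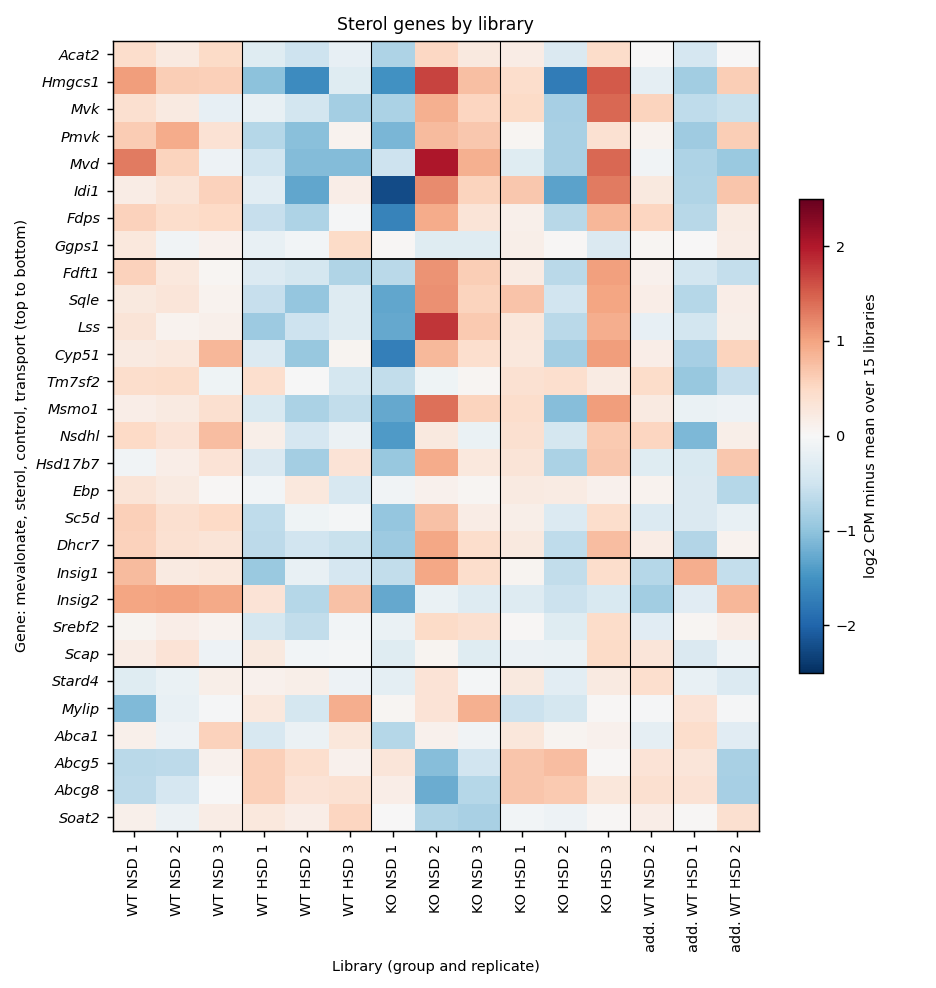
Log2 CPM of each gene minus its mean over the 15 libraries, with genes in rows by role and libraries in columns by group. The synthesis rows turn together from library to library, most of all in KO NSD 1 (low) and KO NSD 2 (high), while the Abcg5 and Abcg8 rows run the other way.

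In wild-type liver, high salt went with lower levels of nearly all synthesis enzymes, but no gene passed the test. Of the 19 enzymes, 18 had a log2 fold change below 0, against 46.3% of all genes, and the median was -0.74, against 0.02 for all genes. The WT HSD libraries all lay below all WT NSD libraries for 14 of the 19, against 4.76% of all genes that were lower and 3.93% that were higher without overlap. After Benjamini-Hochberg adjustment over 13051 genes, edgeR's quasi-likelihood test called 0 genes (0%), and the adjusted p was 1 for each of the 29 members. Without adjustment, 7 of the 29 had p under 0.05, against 4.47% of all genes. Of those 7, 5 were lower (2.56% of all genes) and 2 higher (1.92%), and none of the other tools called a member, although DESeq2 called 9 genes and limma-voom with library quality weights 55. Without WT HSD 3 and WT NSD 3, whose implied transcript lengths stood apart, the median of the enzymes was -0.862. With a replicate block in the 6 WT libraries alone, a fit added after the data were seen, edgeR called 1 of 12494 genes (0.008%) and 0 members, whose smallest adjusted p was 0.127. In that fit 20 of the 29 members had an unadjusted p under 0.05, against 7.34% of all genes. The labels do not pair these libraries by number and the hint of a pairing came from these data, so this count rests on an assumed pairing.

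The mevalonate steps carried the largest differences. Hmgcs1, the synthase that makes HMG-CoA, stood at 574, 426 and 420 CPM in WT NSD 1, 2 and 3 and at 137, 93.5 and 225 CPM in WT HSD 1, 2 and 3. All high salt values were below all normal salt values, and the means were 152 ± 67.3 against 473 ± 87.2 CPM (SD, n = 3). The log2 fold change was -1.64 ± 0.84 (SE), with an unadjusted edgeR p of 0.0808. Mvd, the mevalonate diphosphate decarboxylase, had 65.7, 39.6 and 24.7 CPM on normal salt and 18.9, 12.7 and 12.7 CPM on high salt, a log2 fold change of -1.55 ± 0.71. Pmvk, the phosphomevalonate kinase, had 75.2, 92.1 and 62.4 CPM on normal salt and 29.6, 23.4 and 51.7 CPM on high salt, a log2 fold change of -1.13 ± 0.47 (unadjusted p = 0.035). For each of them the groups did not overlap.

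Acat2, the thiolase that joins acetyl-CoA units, had 119, 102 and 121 CPM in WT NSD against 71, 61.2 and 76.1 CPM in WT HSD. Its groups did not overlap, with a log2 fold change of -0.71 ± 0.28 (edgeR adjusted p = 1). Fdps stood at 426, 386 and 404 CPM on normal salt and at 192, 168 and 280 CPM on high salt, a log2 fold change of -0.92 ± 0.53. Mevalonate kinase, Mvk, overlapped between diets (26.5 to 40.1 CPM on normal salt and 16.9 to 26.7 CPM on high salt). Ggps1 had means of 9.64 ± 1.17 and 9.65 ± 2.51 CPM, the only enzyme not lower on high salt.

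Among the 11 squalene and sterol enzymes, all had lower means on high salt and 8 did not overlap. Dhcr7, the reductase of a closing step of the pathway, had 162, 142 and 137 CPM in WT NSD against 69.3, 78.3 and 74.2 CPM in WT HSD. The log2 fold change was -0.99 ± 0.40, with an unadjusted edgeR p of 0.0304. Sqle, the squalene epoxidase and a control point of the pathway, stood at 90.1, 93.7 and 80.6 CPM on normal salt and at 51.2, 39 and 61.2 CPM on high salt, a log2 fold change of -0.80 ± 0.50. Sc5d, a sterol desaturase, had 761, 666 and 714 CPM against 327, 467 and 491 CPM (log2 fold change -0.73 ± 0.34). Squalene synthase (Fdft1), lanosterol synthase (Lss), the lanosterol demethylase Cyp51, and the demethylation enzymes Msmo1 and Nsdhl also did not overlap, with high salt means of 0.551 to 0.629 times the normal salt means.

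The enzymes that overlapped between diets were the sterol reductase Tm7sf2, the ketoreductase Hsd17b7 and the sterol isomerase Ebp. Tm7sf2 had 156, 159 and 107 CPM in WT NSD against 153, 114 and 84.5 CPM in WT HSD, a log2 fold change of -0.26 ± 0.24. Ebp had 294, 274 and 239 CPM and 224, 282 and 179 CPM, a log2 fold change of -0.23 ± 0.17. Both differences of means were smaller than the larger SD of the groups compared, 34.4 and 51.6 CPM.

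**Figure D3:**
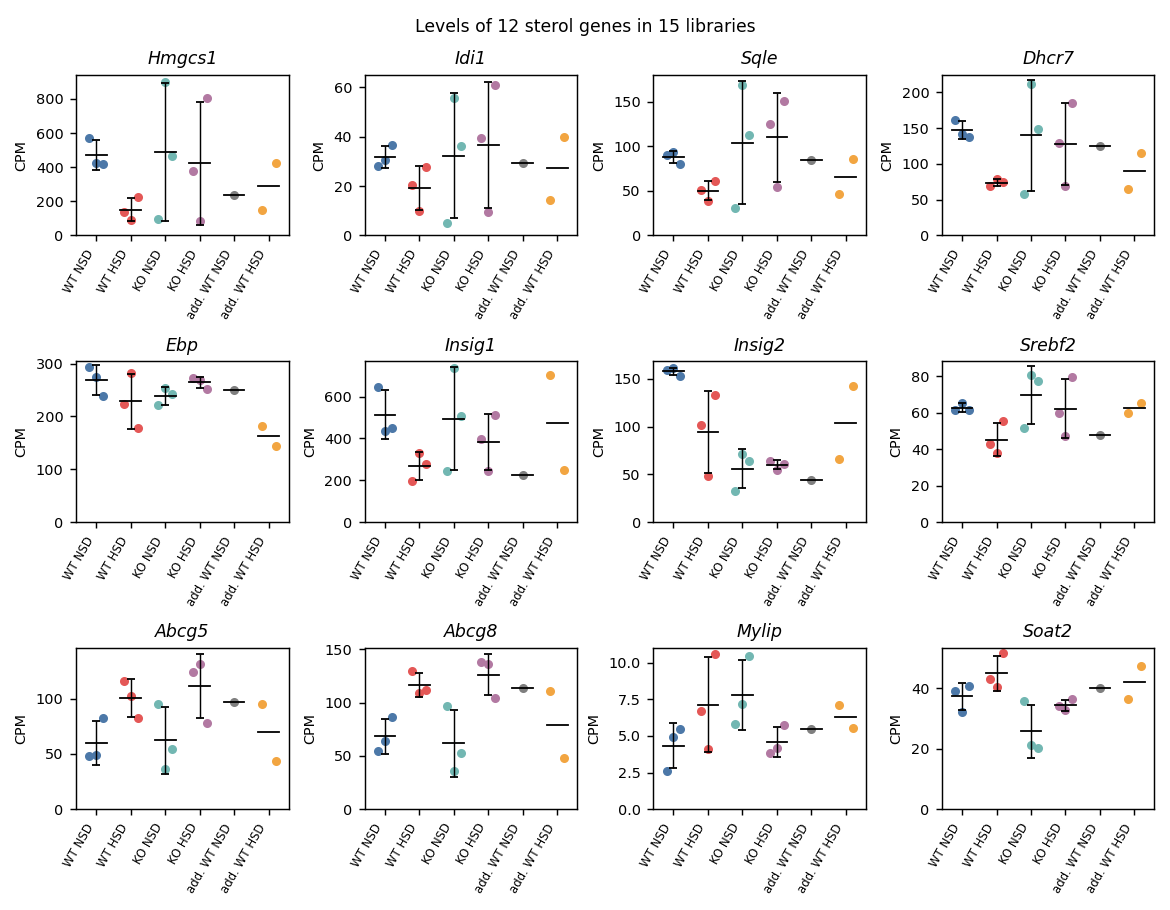
CPM of 12 members in each library by group, with 1 point per library, the group mean as a horizontal line and the SD as error bars in the groups of 3. For Hmgcs1 the WT HSD points lie below all WT NSD points, and the labelled KO groups span nearly the whole range.

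The sensor genes were lower as well in WT HSD. Insig1, a SREBP2 target whose product retains SCAP, stood at 647, 438 and 452 CPM in WT NSD against 196, 330 and 281 CPM in WT HSD (log2 fold change -0.93 ± 0.37, edgeR adjusted p = 1). Insig2, the second retention protein, had 159, 161 and 153 CPM on normal salt and 102, 48.9 and 133 CPM on high salt, a log2 fold change of -0.74 ± 0.33. Srebf2, which encodes SREBP2, had 61.2, 65.5 and 61.5 CPM and 42.7, 37.8 and 55.2 CPM (log2 fold change -0.47 ± 0.22). In these 3 genes the diets did not overlap, whereas Scap overlapped, at 101 to 140 CPM on normal salt and 106 to 132 CPM on high salt.

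The canalicular export pump went the other way. Abcg8, one half-transporter of the pump that secretes sterols into bile, stood at 54.8, 64 and 86.1 CPM in WT NSD against 130, 109 and 112 CPM in WT HSD. The groups did not overlap, and the log2 fold change was 0.78 ± 0.30, the smallest unadjusted edgeR p of the 29 in this contrast (0.0228). Its partner Abcg5 had 48.2, 48.8 and 82.6 CPM against 116, 103 and 82.3 CPM, a log2 fold change of 0.75 ± 0.34, and 1 high salt library fell just below the highest normal salt library. Abcg5 and Abcg8 lie head to head on chromosome 17, on opposite strands, with 109 bases between the starts of the windows used. Their annotated spans overlap (84658174 to 84683011 and 84676302 to 84700333) and the sources used here do not give strandedness, so reads from the shared stretch cannot be assigned by strand.

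The other 4 transport genes overlapped between diets. Mylip, which encodes an E3 ligase that degrades the LDL receptor, had a log2 fold change of 0.72 ± 0.37 from a mean of 4.34 ± 1.51 CPM (SD, n = 3). Abca1, which loads cholesterol onto HDL, overlapped between diets (84.4 to 137 and 69.5 to 112 CPM), as did the cytosolic sterol carrier Stard4 (70 to 96.2 and 79.4 to 96 CPM). Soat2, which esterifies cholesterol, had means of 37.2 ± 4.55 and 44.8 ± 5.83 CPM.

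**Figure D4:**
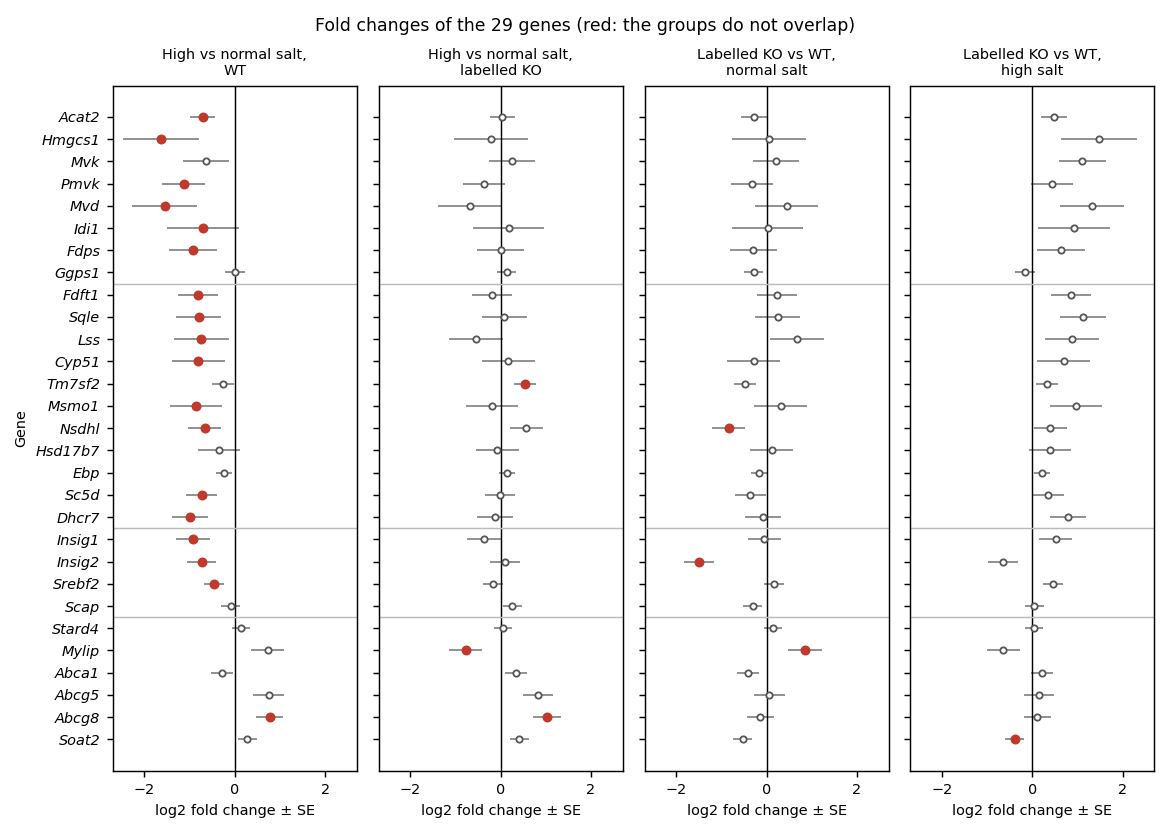
Log2 fold change of the 29 members with its standard error in 4 contrasts, in red where the groups do not overlap. Most synthesis enzymes lie left of 0 for salt in WT, on both sides of 0 for salt in the labelled KO, and right of 0 for labelled KO against WT on high salt, where the groups overlap for all 19.

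In the labelled knockout the enzymes did not differ in a common direction between diets. Of the 19, 9 were higher and 10 lower on high salt, against 50.4% of all genes lower, and the median log2 fold change was 0.00 when rounded. edgeR called 0 genes (0%) and DESeq2 50, and 3 of the 29 members had unadjusted p under 0.05, against 8.05% of all genes, and all 3 were higher (2.55% of all genes). Hmgcs1 had 97.3, 901 and 469 CPM in KO NSD 1, 2 and 3 and 380, 83 and 804 CPM in KO HSD 1, 2 and 3, so each diet spanned nearly the range of the series. Without KO NSD 1 and KO NSD 3 the median of the enzymes was -0.61, and 12 of the 19 were lower on high salt than the remaining library, KO NSD 2, against 24.6% of all genes.

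The export pump was higher on high salt in the labelled knockout too. Abcg8 stood at 96.4, 36.2 and 52.5 CPM in KO NSD and at 138, 136 and 104 CPM in KO HSD, without overlap. Its log2 fold change was 1.03 ± 0.30, with an edgeR p of 0.00488 before and 0.448 after adjustment. Limma-voom with library quality weights, a fit added after the data were seen, called it (adjusted p = 0.0335). That fit called 121 of the 13051 genes in this contrast. Abcg5 had a log2 fold change of 0.83 ± 0.34, with 1 KO HSD library below KO NSD 1. Without KO NSD 1 and KO NSD 3 the log2 fold change was 1.81 ± 0.31 for Abcg8 (edgeR adjusted p = 0.254) and 1.61 ± 0.42 for Abcg5 (adjusted p = 0.672).

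Tm7sf2 and Mylip were the other members without overlap in this contrast, in which 5.92% of all genes were higher and 5.82% lower without overlap. Tm7sf2 had 74.8, 107 and 120 CPM in KO NSD and 151, 154 and 133 CPM in KO HSD (log2 fold change 0.54 ± 0.24, edgeR adjusted p = 0.607). Mylip had 5.82, 7.16 and 10.4 CPM in KO NSD and 3.85, 4.15 and 5.72 CPM in KO HSD, a log2 fold change of -0.77 ± 0.36. Nsdhl, whose groups overlapped, had a log2 fold change of 0.57 ± 0.36. These values were, with KO NSD 1 and KO NSD 3 left out, 0.46 ± 0.34 for Tm7sf2, -0.64 ± 0.50 for Mylip and 0.05 ± 0.38 for Nsdhl.

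The salt effects of the genotypes were compared directly as a difference of log2 fold changes. All 19 enzymes had a positive difference, with a median of 0.80, whereas 52.7% of all genes had a negative one. edgeR called 0 genes (0%) and DESeq2 10, 5.41% of genes had an unadjusted p under 0.05, and adjusted p for the 19 ran from 0.86 to 1. For Hmgcs1 the difference was 1.43 ± 1.17. Nsdhl (1.23 ± 0.51, unadjusted p = 0.0326) and Tm7sf2 (0.80 ± 0.34, unadjusted p = 0.0365) had the smallest p among the enzymes, and Mylip that among all members (-1.50 ± 0.52, unadjusted p = 0.0127, adjusted p = 0.835). Insig2 had a difference of 0.83 ± 0.46. For Abcg8 the difference was 0.25 ± 0.42 and for Abcg5 0.08 ± 0.47, so neither a larger nor a smaller salt effect in the labelled knockout was resolved. Leaving out KO NSD 1 and KO NSD 3 gave a median of 0.27 for the enzymes. The difference then turned negative for Lss (-0.72 ± 0.55), Hsd17b7 (-0.35 ± 0.64), Msmo1 (-0.12 ± 0.69) and Mvd (-0.001 ± 1.31), and stayed positive for the other enzymes. It was 1.04 ± 0.35 for Abcg8 and 0.87 ± 0.47 for Abcg5. Most enzymes rose and fell together across libraries, so the 19 are not separate observations. The contrasts share their groups, so they are not independent of each other.

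On normal salt, the labelled knockout and the wild type stood farthest apart, among the 29 members, in Insig2. It had 33, 71.7 and 63.6 CPM in KO NSD and 159, 161 and 153 CPM in WT NSD, with all labelled knockout libraries below all wild-type libraries, as in 9.53% of all genes (9.98% were above). The mean of 56.1 ± 20.4 CPM was 0.356 times the wild-type mean of 158 ± 4.04 CPM (SD, n = 3). The log2 fold change was -1.49 ± 0.33, with an edgeR p of 0.000662 before and 0.0675 after adjustment, above the threshold of 0.05. DESeq2 called it (adjusted p = 0.00118), as did limma-voom with quality weights (adjusted p = 0.005) and edgeR without WT HSD 3 (adjusted p = 0.0398). So did edgeR without KO NSD 2 (adjusted p = 0.0362), which keeps only KO NSD 1 and KO NSD 3, with low Y-linked sums, in that group. In this order the fits called 661, 1632, 140 and 420 genes, against 54 in the main fit. The other alternatives did not call Insig2. KO NSD 2, with Y-linked levels like those of the other libraries, also stood below all WT NSD values, and without KO NSD 1 and KO NSD 3 the log2 fold change was -1.15 ± 0.44 (adjusted p = 0.626). The normal salt library of the additional WT set, which did not enter this contrast, had 43.9 CPM of Insig2, inside the KO NSD range.

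In this contrast edgeR called 54 of 13051 genes (0.414%) and 0 of the 29 members, and without KO NSD 1 and KO NSD 3 it called 0 genes. Of the members, 4 had unadjusted p under 0.05, against 14.3% of all genes. Soat2 stood at 35.8, 21.1 and 20.3 CPM in KO NSD and at 39, 32.1 and 40.7 CPM in WT NSD, overlapping, with a log2 fold change of -0.53 ± 0.21. Mylip had 2.63, 4.92 and 5.47 CPM in WT NSD, all below the KO NSD values given above (log2 fold change 0.85 ± 0.37). Limma-voom with quality weights called both (adjusted p = 0.016 for Soat2 and 0.0234 for Mylip), and edgeR did not (adjusted p = 0.266 and 0.309). That voom fit called 3 of the 29 members and 1632 of the 13051 genes, so members were called no more often than genes at large. Nsdhl had 139, 125 and 168 CPM in WT NSD against 36.7, 116 and 88.1 CPM in KO NSD, without overlap (log2 fold change -0.84 ± 0.36), and Tm7sf2 a log2 fold change of -0.48 ± 0.24. Leaving out KO NSD 1 and KO NSD 3 gave -0.83 ± 0.23 for Soat2, 0.71 ± 0.50 for Mylip, -0.32 ± 0.38 for Nsdhl and -0.40 ± 0.34 for Tm7sf2.

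The synthesis enzymes as a group had a median of -0.07 on normal salt between genotypes, with 9 higher and 10 lower, against 48.8% of all genes lower. Without KO NSD 1 and KO NSD 3 the median was 0.52, and 13 of the 19 were higher and 2 lower in KO NSD 2 than in all WT NSD libraries, against 26.3% of all genes higher and 26.6% lower. The Kupffer cell and neutrophil marker sums given above were highest in KO NSD 1, the library with the lowest enzyme levels; their part in the result was not tested.

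On high salt, 18 of the 19 enzymes had higher means in the labelled knockout, whereas 52.8% of all genes had a log2 fold change below 0. The median log2 fold change was 0.70 for the enzymes and -0.01 for all genes. For 0 of the 19 were the groups without overlap, against 4.05% of all genes higher without overlap. edgeR called 0 genes (0%) and DESeq2 29, none of them a member, and of the members only Sqle had an unadjusted p under 0.05, against 4.62% of all genes. Sqle stood at 125, 54.8 and 151 CPM in KO HSD 1, 2 and 3 against 39 to 61.2 CPM in WT HSD, a log2 fold change of 1.12 ± 0.51. KO HSD 2 lay within the wild-type range and the other 2 above it. Without KO HSD 2, 14 of the 19 enzymes were higher without overlap, against 7.4% of all genes, and the median was 1.05. Without KO HSD 3 the median was 0.327 with 0 enzymes free of overlap, and with any other single library left out 0 to 2 enzymes were. The log2 fold change was 1.48 ± 0.84 for Hmgcs1, 1.31 ± 0.71 for Mvd and 1.11 ± 0.52 for Mvk.

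Insig2 and Soat2 were lower in the labelled knockout on high salt as well. Insig2 had 64.2, 54.7 and 61.5 CPM in KO HSD, a narrow range inside the WT HSD range of 48.9 to 133 CPM (log2 fold change -0.65 ± 0.33). Soat2 had 33.9, 32.7 and 36.3 CPM in KO HSD and 42.9, 40.2 and 51.4 CPM in WT HSD, the only member without overlap in this contrast (log2 fold change -0.39 ± 0.21), against 3.98% of all genes lower without overlap.

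The additional WT set gave a partly different picture, with 2 high salt libraries against 1. Both high salt libraries had long implied transcript lengths (2694 and 2879 bases), and the normal salt library had a short one (2419 bases). Salt and this library trait cannot be told apart in this set. Of the 19 enzymes, 14 were lower on high salt, against 49.1% of all genes, with a median log2 fold change of -0.37. Leaving out either high salt library moved this median, to 0.0017 without the first and to -0.692 without the second. The fit of 15 libraries called 3 of 13864 genes (0.0216%) and 0 members. Hmgcs1 stood at 240 CPM on normal salt and at 152 and 427 CPM on high salt, so the high salt libraries lay on both sides. Tm7sf2 had 158 CPM on normal salt and 59.4 and 76.8 CPM on high salt, with a log2 fold change of -1.22 ± 0.35 (edgeR adjusted p = 0.412). Ebp (-0.61 ± 0.26) and Stard4 (-0.69 ± 0.29) were lower as well. With so few libraries, 37.6% of all genes were higher and 38.9% lower without overlap.

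Across the 15 libraries, most synthesis enzymes followed Hmgcs1. Of the 18 other enzymes, 15 had a Pearson r above 0.7 with it on the log2 CPM scale, and the exceptions were Ggps1 (-0.214), Tm7sf2 (0.186) and Ebp (0.0878). The share of all genes past this cut was not computed. Hmgcs1, the cut and the 10 pairs tested below were chosen after the values were seen, so the permutation p-values only describe these pairs. The permutations shuffled all 15 libraries without regard to group, so differences between groups also enter those p-values. For Hmgcs1 and Dhcr7, r was 0.939 and Spearman's rho 0.893 (permutation p = 1e-05, the smallest that 100000 resamples can give, and 4e-05; adjusted over 10 relations 3.33e-05 and 0.000133). For Hmgcs1 and Sqle, r was 0.919 and rho 0.879 (permutation p = 1e-05 and 6e-05, adjusted 3.33e-05 and 0.00015).

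The relation held with the sensor gene Srebf2 (r = 0.864, rho = 0.907, permutation p = 6e-05 and 2e-05, adjusted 0.00015 and 0.0001) and was weaker with Insig1 (r = 0.617, rho = 0.657, permutation p = 0.0162 and 0.00926, adjusted 0.0231 and 0.0132). Insig2 (r = 0.45, adjusted permutation p = 0.116), Stard4 (r = 0.265, adjusted p = 0.333) and Soat2 (r = -0.351, adjusted p = 0.226) showed no relation past the threshold. Abcg5 ran against Hmgcs1 (r = -0.733, rho = -0.818, permutation p = 0.0023 and 0.00038, adjusted 0.0046 and 0.00076), as did Abcg8 (r = -0.661, rho = -0.693, permutation p = 0.00767 and 0.00509, adjusted 0.0128 and 0.00848). Abcg5 and Abcg8 followed each other (r = 0.968, rho = 0.918, permutation p = 1e-05 and 2e-05, adjusted 3.33e-05 and 0.0001), with the overlap of their spans as stated.

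**Figure D5:**
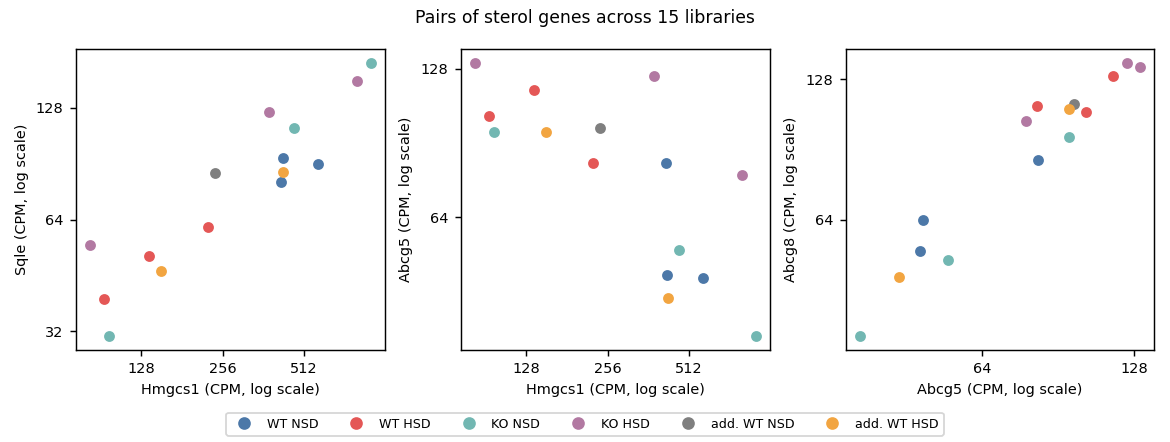
CPM on log axes of Sqle and of Abcg5 against Hmgcs1, and of Abcg8 against Abcg5, with 1 point per library colored by group. The points rise for Sqle with Hmgcs1 (r = 0.919) and for Abcg8 with Abcg5 (r = 0.968), and fall for Abcg5 with Hmgcs1 (r = -0.733).

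The relations with Dhcr7, Sqle, Srebf2, Insig1, Abcg5 and Abcg8 kept their sign in each of these subsets. Without the 2 libraries farthest from the median of the first gene, r was 0.96 for Dhcr7, 0.936 for Sqle, 0.823 for Srebf2, 0.598 for Insig1, -0.667 for Abcg5 and -0.612 for Abcg8 with Hmgcs1, and 0.946 for Abcg5 with Abcg8. For deviations from group means over 14 libraries, r was 0.949 for Dhcr7, 0.962 for Sqle, 0.922 for Srebf2, 0.502 for Insig1, -0.808 for Abcg5 and -0.745 for Abcg8. By the same measure r was 0.706 for Insig2, 0.548 for Stard4 and -0.224 for Soat2. Over the 13 libraries other than KO NSD 1 and KO NSD 3, r was 0.926 for Dhcr7, 0.91 for Sqle, 0.889 for Srebf2, 0.565 for Insig1, 0.376 for Insig2, -0.73 for Abcg5 and -0.674 for Abcg8, and 0.973 for Abcg5 with Abcg8. In 4 libraries the median length implied by counts and FPKM was 2694 to 2879 bases against 2417 to 2575 in the other 11. Within those 11, r was 0.971 for Dhcr7, 0.929 for Sqle, 0.89 for Srebf2, 0.854 for Insig1, -0.748 for Abcg5 and -0.654 for Abcg8.

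Of 31 other sterol genes, listed by role, 30 were tested and 0 passed edgeR's test in any contrast. For salt in WT, 3 had unadjusted p under 0.05, against the 4.47% of all genes, all higher on high salt, among them Rnf145 (log2 fold change 0.78 ± 0.24), which encodes a ubiquitin ligase of the sterol sensor, and Stard5 (0.49 ± 0.21). For labelled KO against WT on normal salt, 10 had unadjusted p under 0.05, against 14.3% of all genes, 7 of them higher and 3 lower. Rnf145 (1.06 ± 0.24, edgeR adjusted p = 0.0691), Soat1 (1.28 ± 0.34, adjusted p = 0.0914) and Cyp39a1 (2.28 ± 0.63, adjusted p = 0.114) had the smallest p among them and were higher in the labelled knockout. The 3 lower genes were Cyp27a1 (-0.63 ± 0.22), Pdss2 (-0.46 ± 0.18) and Cyp7b1 (-2.16 ± 0.89). Cyp7b1 had a mean of 48.4 ± 52.68 CPM in KO NSD against 216.6 ± 41.95 CPM in WT NSD (SD). All these values include KO NSD 1 and KO NSD 3, the libraries with low Y-linked sums. For these genes, values without them are not given, and the part of library sex was not tested.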

How the data were processed

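RNA-seq libraries of mouse liver were aligned with Bowtie2 2.2.5 and quantified with RSEM 1.2.8 on mm10, per the submitters' processing notes. The deposited table holds expected counts (69.3% to 72.6% of values whole), and FPKM values were deposited per library; the sources used here do not give strandedness or annotation. Every sample column was mapped (0 left out).

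Expected counts were rounded and fitted in R 4.3.3 with edgeR 4.0.16 (TMM, filterByExpr, robust quasi-likelihood F test, 4 group means of 12 libraries, 13051 genes, common biological coefficient of variation 0.272). The additional set used a fit of all 15 libraries (13864 genes), in which its lone normal salt library is assumed to vary like the others. Adjustment was by Benjamini-Hochberg over all genes tested, with a threshold of 0.05, and all tests are two-sided. With 3 libraries against 3 an exact permutation test cannot go below 0.1. Printed levels are CPM scaled over 15 libraries. Groups do not overlap where every library of one lies above every library of the other. Alternatives used DESeq2 1.42.0, limma 3.58.1 (voom, and log2(FPKM + 1) or + 0.1), RLE scaling, no filter, a replicate block and left-out libraries. Only the edgeR fit for salt in WT was tested on simulated data. There it called 29% of genes with a true log2 change of 1 in either direction, 91.7% at 2 and 92.8% at 3. Of unchanged genes it called 0.0472%. Promoters and coordinates come from RefSeq on GRCm38.p6.

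All 29 members are accounted for and were all tested. Members, lists and several alternatives were chosen with earlier results of these data known. The counts without overlap, the 10 correlated pairs, the promoter stretches shown, the comparison of the additional with the main set 2 further voom fits (not robust, and with library quality weights) and the fits of the 6 WT libraries alone were chosen after the values were seen. Libraries of a group differed by more than sampling noise. The same-number libraries of WT NSD and WT HSD deviated together (r = 0.189, 0.108 and 0.484 for numbers 1, 2 and 3), which is a hint from the data and not stated in the labels. Number 2 of WT HSD correlated more with number 1 of WT NSD (0.398), and both libraries numbered 3 had long implied transcript lengths (2821 and 2700 bases).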

Additional observations from a re-analysis of the deposited data

Results flagged for a closer look

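In 4 members the high salt effect ran in opposite directions in the main WT groups and in the additional WT set, with no overlap in either. As the log2 ratio of mean CPM in the main groups, Insig1 stood at -0.93, Insig2 at -0.739, Srebf2 at -0.471 and Abcg8 at 0.775. In the additional set the fitted log2 fold change was 1.06 ± 0.68 for Insig1, 1.25 ± 0.57 for Insig2, 0.39 ± 0.33 for Srebf2 and -0.51 ± 0.50 for Abcg8. Its normal salt library had 228, 43.9, 47.9 and 113 CPM for these genes in that order, and its high salt libraries 703 and 248 CPM for Insig1, 66 and 143 CPM for Insig2, 59.9 and 65.5 CPM for Srebf2, and 111 and 48.3 CPM for Abcg8. The test of the difference itself, added after the data were seen, gave 1.99 ± 0.82 for Insig1 (edgeR adjusted p = 0.367), 1.99 ± 0.68 for Insig2 (0.365), 0.86 ± 0.40 for Srebf2 (0.384) and -1.29 ± 0.60 for Abcg8 (0.387), and 0 of 13864 genes were called (0%). With 1 library on 1 side, 37.6% of all genes were without overlap higher and 38.9% lower in the additional set. Of the 29 members, 17 were lower and 1 higher without overlap in the main WT groups. The share of all genes that met both conditions was not computed, so the 4 members are not shown to differ from other genes. The normal salt library of the additional set had an adipocyte marker sum of 68.86 CPM against 2.676 to 13.38 CPM elsewhere. Its implied transcript length was 2419 bases against 2694 and 2879 bases in the high salt libraries of that set. There, salt and these library traits cannot be told apart, and their part in the result was not tested.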

How the results depend on the processing

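For salt in WT, no alternative called a member, the median of the enzymes stayed between -0.862 and -0.647, and the number of enzymes without overlap and lower was 13 to 17 (14 to 16 with 1 library left out). DESeq2 called 9 genes for salt in WT, 50 for salt in the labelled KO, 661 for labelled KO against WT on normal salt (1 member, Insig2), 29 on high salt, 10 for the difference of salt effects and 30 in the additional set. Limma-voom called 29 and, when not robust, 27 genes for labelled KO against WT on normal salt, where the main count was 54. Limma-voom with quality weights called 55 genes for salt in WT, 121 for salt in the labelled KO (1 member, Abcg8, log2 fold change 1.23) and 1632 for labelled KO against WT on normal salt (3 members, Insig2 at -1.41, Mylip at 1.13 and Soat2 at -0.656). These counts, like those of DESeq2 in the main groups, are out of 13051 genes and 29 members. Using all 15 libraries gave 106 genes there, log2(FPKM + 1) 104 (and 3 for salt in the labelled KO) and log2(FPKM + 0.1) 102. Without KO NSD 1 and KO NSD 3 together it was 0 genes, with 2 enzymes lower and 13 higher without overlap, and 12 lower for salt in the labelled KO. Without WT HSD 3 and WT NSD 3 together, 30 genes were called for salt in WT and 6 for the difference, and enzymes without overlap numbered 3 lower on normal salt and 1 higher on high salt between genotypes. On FPKM levels, 0 enzymes were higher without overlap for salt in the labelled KO.

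With 1 library left out, called genes ranged from 0 to 10 for salt in WT, 0 to 21 for salt in the labelled KO, 5 (without WT NSD 2) to 420 (without KO NSD 2) for labelled KO against WT on normal salt (members 0 to 1), 0 to 7 on high salt, 0 to 8 for the difference, and 1 to 1 in the additional set. Enzymes without overlap ranged from 0 to 1 lower and 1 to 2 higher for salt in the labelled KO, 1 to 3 lower and 0 to 5 higher on normal salt, and 0 to 14 higher on high salt between genotypes. The medians of the enzymes ranged from -0.394 to 0.413, -0.502 to 0.273, 0.327 to 1.05, 0.446 to 1.24 and, in the additional set, -0.692 to 0.0017, in the same order. Insig2 between genotypes on normal salt was -1.49 by DESeq2 and ranged from -1.70 to -1.51 in the 2 left-out fits that called it.

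The difference of salt effects for Abcg5 (0.08) changed sign with quality weights (-0.0558), log2(FPKM + 1) (-0.0223), log2(FPKM + 0.1) (-0.0225), without WT HSD 3 and WT NSD 3 (-0.317) and with single libraries left out (lowest -0.185, highest 0.568), and that for Abcg8 without KO NSD 2 (lowest of the left-out fits -0.0212, highest 0.764); the cause was not tested. Over all 29 members, the sign changed in at least 1 of 26 alternatives for 2 members for salt in WT, and in at least 1 of 24 for 17 for salt in the labelled KO, 19 and 3 between genotypes on normal and high salt, and 7 for the difference, and in at least 1 of 5 for 12 in the additional set.

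Over all pairs of groups, same-number libraries correlated at -0.251 to 0.484 (median 0.0551, 18 pairs) and other-number libraries at -0.433 to 0.398 (median -0.0364, 36 pairs), so outside WT NSD and WT HSD the numbers were not taken to pair the libraries. With a replicate block in all 12 libraries edgeR called 98 genes for labelled KO against WT on normal salt, 1 for salt in the labelled KO, 0 for salt in WT and 0 members, and with the block in the 6 WT libraries alone 1 gene for salt in WT. Intervals and p-values cover the spread between libraries only, and the smallest total of a member over 15 libraries was 1720 counts.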
